A study of Mus musculus with 12 samples.

Results

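Hearts of 1-month-old mice whose cardiomyocytes were targeted for loss of both corticosteroid receptors (cardioGRMRdKO, called knockout hearts here) were compared with hearts of control littermates (dflox) of the same age. The comparison rests on 6 of the 12 arrays of the study, 3 hearts per genotype, chosen by the genotype and age in the sample titles. The other 6 arrays hold the same genotypes at 2 months and served for the estimate of spread and for a check. All mice were male, on the C57BL/6 background, and both genotypes carried floxed alleles of the glucocorticoid receptor gene Nr3c1 and of the mineralocorticoid receptor gene Nr3c2. Only knockout mice carried Cre, under the αMHC promoter, which acts in cardiomyocytes. No mice with Cre and unfloxed receptor genes were part of the comparison, so receptor loss and Cre cannot be told apart. RNA came from whole hearts, which also hold fibroblasts, vessel cells, nerve and immune cells that αMHC-Cre does not reach, so fewer cells of a type and less RNA per cell cannot be told apart.

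The glucocorticoid and mineralocorticoid receptors are closely related nuclear receptors that bind corticosteroids, move to the nucleus and regulate transcription, in part at a shared palindromic DNA element. In cardiomyocytes, glucocorticoids can occupy both receptors, because the enzyme that shields the mineralocorticoid receptor in kidney is scarce there. Both receptors have been linked to heart growth, contraction, metabolism and electrical activity, and excess mineralocorticoid signalling to hypertrophy and fibrosis.

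Each heart was read on 1 single-colour Agilent whole mouse genome array, and all levels below are log2 signals on a scale where 0 is the array's 75th percentile. On the 6 arrays at 1 month, between 63.7% and 70.3% of transcript spots cleared background, 0 spots were saturated, and replicates correlated at 0.983 to 0.992 over genes. Dflox replicate 1 and knockout replicate 2 shared slide 1, dflox replicates 2 and 3 and knockout replicate 3 shared slide 2, and knockout replicate 1 lay on slide 3. All 3 dflox arrays had an outer place on their slide and all 3 knockout arrays an inner place, so at this age place and genotype cannot be told apart. Scgb1a1 and Cyp2f2, markers of airway club cells, also separated the genotypes: their mean level was 3.58, 4.77 and 4.45 in dflox and 0.25, −1.20 and −2.03 in knockout hearts. The values that bear on both patterns are given after the genes.

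The targeted genes were measured first. On the brightest Nr3c1 probe, dflox hearts with a usable spot stood at 2.27 and 2.05 and knockout hearts at 1.35 and 1.51. The genotypes did not overlap, and the difference of −0.73 (limma, SE 0.168) did not pass the test at an adjusted p of 0.119. With the 2 spots flagged as outliers kept it was −0.85 and passed (adjusted p = 0.0229). Of 27 alternative settings this was the only 1 in which Nr3c1 passed. Another 3 Nr3c1 probes were measured in all 6 hearts and differed by −0.83, −0.94 and −0.68. On each of these probes the genotypes did not overlap and dflox replicate 3 was the highest heart. Nr3c2 was dim, at −3.43, −3.46 and −3.61 in dflox and −2.91, −3.76 and −3.65 in knockout hearts, and its groups overlapped (difference 0.06, SE 0.499). The labels do not say which exons are deleted, and a probe outside them does not report on the deletion. H6pd, which supplies cofactor for glucocorticoid activation, differed by −0.28 (adjusted p = 0.544), and of 13 tested genes for receptors, coactivators and steroid enzymes 0 passed, with a median of 0.01.

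The heart label held against its markers. The 17 cardiomyocyte markers, which include Myh6, Actc1 and Tnnt2, were all measured, and their signals, as multiples of the array's 75th percentile, summed to 3960 to 4302 in dflox and 3398 to 3934 in knockout hearts. A spot left out as an outlier adds nothing to such a sum, here and below. The sums did not overlap, 13 of the 17 markers were lower in knockout hearts, and 0 passed the test (median difference −0.10). Myh6, the main myosin heavy chain of adult mouse heart, stood at 9.02, 8.85 and 8.91 in dflox and 8.0, 8.57 and 8.77 in knockout hearts, a difference of −0.48 (limma adjusted p = 0.531). Knockout replicate 1, the only heart of the comparison on slide 3, was the lowest.

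Across 18258 genes tested, limma called 179, or 0.98%, at a Benjamini-Hochberg adjusted p under 0.05, with 80 higher in knockout hearts (0.438% of all genes) and 99 lower (0.542%). Counts of called list members are to be read beside these shares, and the lists were drawn up with earlier results of these data known. The median difference over all genes was −0.001. Scaling each array to its own 75th percentile holds this value near 0, so a shift common to all genes was not tested. Of the called genes 97 differed by 2-fold or more, 40 higher and 57 lower. Groups that did not overlap were common, at 18.9% of all genes, and all 179 called genes were among them. Where a lack of overlap is given below for a called gene, it therefore adds nothing to the call. Called genes were not brighter than others: their median level over the 6 hearts was −0.82 against −0.49 for all genes, and 38.0% against 44.6% lay above the array's 75th percentile.

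**Figure D1:**
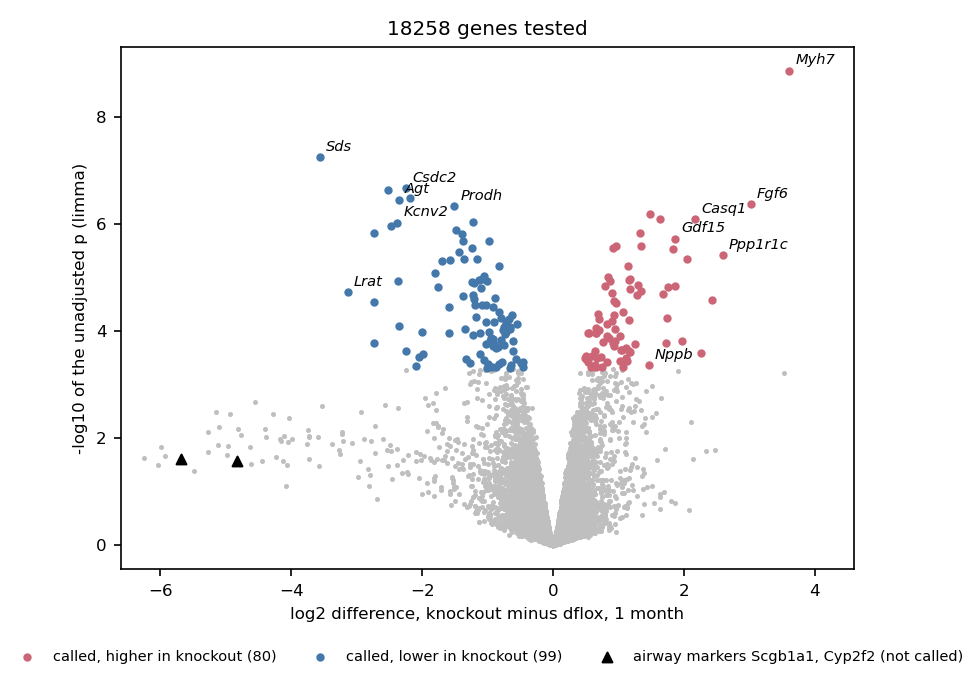
Log2 difference between knockout and dflox hearts at 1 month (x axis) against −log10 of limma's unadjusted p (y axis) for each gene tested. The 80 genes called higher (red) and 99 called lower (blue) lie on both sides of 0, Myh7 stands highest, and the airway markers Scgb1a1 and Cyp2f2 (triangles) have large differences but were not called.

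Contractile genes held the largest rise. Myh7, which encodes slow β-myosin, the main heavy chain of the mouse ventricle before birth (probe at chromosome 14, 49837275 to 49837334, mm7), stood at 3.57, 3.76 and 3.62 in dflox and at 7.11, 7.39 and 7.28 in knockout hearts. Every knockout heart was far above every dflox heart, by 12.2-fold on average (log2 3.61, SE 0.178, limma adjusted p = 2.52e-05). Compared within a slide, Myh7 was higher in the knockout heart by 3.82 on slide 1 and by 3.59 on slide 2.

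Other markers of the fetal and stressed heart split. Nppb, which encodes the natriuretic peptide BNP released by stretched myocardium, stood at 4.11, 3.71 and 3.85 in dflox and 5.12, 5.38 and 5.56 in knockout hearts. It rose 2.76-fold (log2 1.46, SE 0.287, adjusted p = 0.0464 by limma). Ankrd1, a stretch-responsive titin-binding protein of cardiomyocytes, rose 1.91-fold from 5.90, 5.99 and 5.99 to 6.74, 7.0 and 6.93 (adjusted p = 0.0267). In contrast Nppa, the atrial natriuretic peptide gene, overlapped between genotypes, at 8.55, 8.68 and 8.53 in dflox and 7.87, 8.60 and 8.52 in knockout hearts (difference −0.26, adjusted p = 0.861). Acta1, skeletal α-actin, also overlapped, at 4.11, 5.44 and 4.15 against 5.18, 5.86 and 5.14 (difference 0.83, adjusted p = 0.433). Without dflox replicate 2, the high control, Acta1 differed by 1.27 and passed (limma adjusted p = 0.0471). Of 27 alternative settings this was the only 1 in which Acta1 passed. Of 28 tested fetal and hypertrophic genes 5 rose (Myh7, Nppb, Cck, Mybpc2 and Ankrd1) and 1 fell (Tnni1), and the median of the list was −0.06. The rise of Cck is that of its brightest probe, and a dim probe of Cck differed by −0.47. Of 23 sarcomere genes of heart Myh7 alone passed, and 19 of the 23 were below 0.

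**Figure D2:**
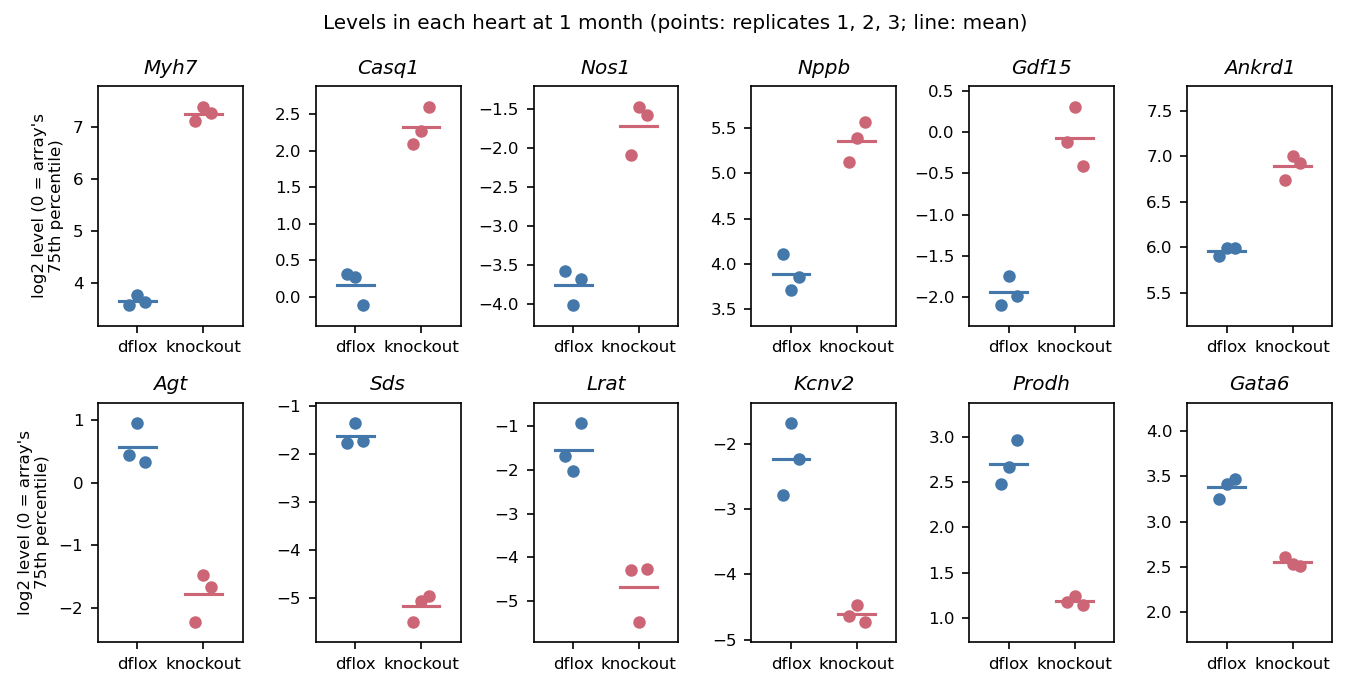
Log2 level in each heart (y axis, 0 is the array's 75th percentile) for 12 genes in dflox (blue) and knockout (red) hearts at 1 month; points are replicates 1 to 3 from left to right and lines are means. Knockout hearts lie above all dflox hearts in the upper row and below all of them in the lower row.

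Several rises were in genes better known from skeletal muscle. Casq1, the calsequestrin that stores calcium in skeletal muscle (chromosome 1, 172180644 to 172182147), went from 0.31, 0.27 and −0.12 to 2.09, 2.27 and 2.60, a 4.49-fold rise (log2 2.17, SE 0.206, limma adjusted p = 0.00133). Mybpc2, fast myosin-binding protein C, rose from 2.47, 2.93 and 2.57 to 3.75, 3.90 and 3.81 (2.24-fold, adjusted p = 0.00476). Mylpf, a fast myosin regulatory light chain, rose 3.34-fold from a dim level (adjusted p = 0.0132). Neither gene's groups overlapped. Tnni1, the slow skeletal and fetal troponin I, went the other way, from −1.65, −2.27 and −1.71 to −3.26, −2.93 and −3.05 (2.31-fold lower, adjusted p = 0.00722). Of 29 tested genes of skeletal muscle sarcomere and excitation these 3 rises and 1 fall passed, with 17 of the 29 below 0 and a median of −0.13. Fgf6, a muscle growth factor, cleared background on 3 of 3 knockout arrays and 0 of 3 dflox arrays, a rise of at least 3.14-fold (adjusted p = 0.00107); where a group was below background on every array, the fold is a bound set by the lowest signal well above background. Tmod4, a skeletal tropomodulin that caps actin filaments, rose 1.77-fold (adjusted p = 0.0149).

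Of 28 calcium-handling genes 3 rose and 0 fell (median −0.09): Casq1, Camk2b, a subunit of the calcium and calmodulin kinase CaMKII, from −0.14, −0.07 and −0.24 to 0.43, 0.50 and 0.58 (1.58-fold, adjusted p = 0.0169), and Ppp1r1c. Ppp1r1c inhibits protein phosphatase 1. Its spots cleared background in 2 of 3 knockout and 0 of 3 dflox hearts, and the rise was at least 1.6-fold (adjusted p = 0.00252). Ryr2, the cardiac calcium release channel, stood at −1.01, −0.81 and −0.86 in dflox and −1.18, −1.13 and −1.38 in knockout hearts. Its groups did not overlap, and its difference of −0.34 (SE 0.101) did not pass (adjusted p = 0.224 by limma). Camk2a differed by −0.37 (adjusted p = 0.165).

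Several stress and growth-arrest genes rose. Gdf15, a stress-induced cytokine of the TGF-β family (chromosome 8, 69084712 to 69084771), went from −2.10, −1.74 and −1.99 to −0.11, 0.31 and −0.41, 3.65-fold higher (SE of the log2 value 0.194, limma adjusted p = 0.00181). Gadd45a, a DNA-damage and growth-arrest gene, was tight in both groups, at 1.6, 1.57 and 1.57 against 2.39, 2.42 and 2.48 (1.80-fold, adjusted p = 0.00463). Eda2r, a TNF-receptor family member and p53 target, rose 2.27-fold (adjusted p = 0.00552), and Rprm, a p53-induced cell cycle inhibitor, rose 3.31-fold (adjusted p = 0.0246). No dflox heart overlapped a knockout heart in any of these 4 genes. Of 27 p53 targets and integrated stress genes these 4 rose and 0 fell, with a median of 0.16. Cdkn1a, the gene of p21, an inhibitor of the cell cycle, was higher by 0.85 and did not pass (adjusted p = 0.0958). Neither the 30 tested heat shock and unfolded protein genes nor the 40 mitotic genes held a called gene, although Ccnd2, the G1 cyclin D2, rose 1.63-fold (adjusted p = 0.0132).

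The renin-angiotensin and natriuretic systems held 1 rise and 1 fall among 21 tested genes (median −0.02). Agt, which encodes angiotensinogen, the precursor of angiotensin peptides (chromosome 8, 123143932 to 123143991), dropped from 0.44, 0.94 and 0.33 to −2.22, −1.47 and −1.67. It fell 5.11-fold, with no overlap between genotypes (log2 −2.35, SE 0.205, limma adjusted p = 0.00107). The rise was that of Nppb. Enpep, an aminopeptidase that cleaves angiotensin II, was higher by 0.60 (adjusted p = 0.0567), and Ednra, the endothelin A receptor, differed by −0.59 (adjusted p = 0.139); neither passed the threshold.

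Amino acid breakdown was the pathway list with the most falls. Sds, serine dehydratase, stood at −1.76, −1.36 and −1.73 in dflox and −5.49, −5.07 and −4.95 in knockout hearts, 11.8-fold lower (log2 −3.56, SE 0.256, limma adjusted p = 5.18e-04). Prodh, proline dehydrogenase, fell 2.85-fold from 2.48, 2.67 and 2.96 to 1.18, 1.24 and 1.15 (adjusted p = 0.00107). Got1, cytosolic aspartate aminotransferase, fell 1.53-fold from 6.38, 6.57 and 6.5 to 6.01, 5.82 and 5.78 (adjusted p = 0.031). Bckdhb, a subunit of branched-chain ketoacid dehydrogenase, fell 1.37-fold (adjusted p = 0.0495). All 4 enzymes separated the genotypes in every heart. Of 29 tested genes of amino acid and one-carbon metabolism these 4 fell and 0 rose, 23 were below 0 and the median was −0.12. Cth, which makes cysteine from cystathionine, differed by −0.86 and did not pass (limma adjusted p = 0.0839). Without knockout replicate 1 it differed by −1.05 and passed (adjusted p = 0.0451), and it passed in 2 of 27 alternative settings in all.

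Among fuel genes single calls stood beside lists that lay mostly below 0. Acsm5, a mitochondrial medium-chain acyl-CoA synthetase, was well above background on 3 of 3 dflox and 0 of 3 knockout arrays and fell at least 4.32-fold (limma adjusted p = 0.00793). It was the 1 called gene of 36 for fatty acid uptake and oxidation, although 34 of the 36 were below 0 (median −0.19). Acot1, an acyl-CoA thioesterase, differed by −1.35 without passing (adjusted p = 0.118). Pfkfb1, which makes an activator of glycolysis, fell 3.02-fold, from 1.02, 1.07 and 0.89 to −1.01, −0.38 and −0.41 (limma adjusted p = 0.00912). It was the 1 called gene of 30 for glucose use (median −0.05); Slc2a1, the glucose transporter GLUT1, differed by −0.51 (adjusted p = 0.344). Bdh1, the mitochondrial enzyme of ketone body use, fell 2.99-fold, from 0.90, 1.23 and 0.65 to −0.52, −0.82 and −0.61 (adjusted p = 0.00272). Of 45 respiratory chain genes 0 passed, 41 were below 0 and the median was −0.12, beside a sum of their signals of 6460 to 7787 in dflox and 6138 to 6927 in knockout hearts.

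Further metabolic calls lay outside the lists and were picked out after their values were seen. Alas1, the first enzyme of haem synthesis, fell 1.73-fold (limma adjusted p = 0.0132). Ppp1r3c, which targets protein phosphatase 1 to glycogen, rose 1.94-fold (adjusted p = 0.0235), and Stbd1, a glycogen-binding protein, fell 2.4-fold (adjusted p = 0.0441). Nmrk2, a muscle enzyme that makes a precursor of NAD, rose 2.26-fold (adjusted p = 0.0321), and Ckb, brain-type creatine kinase, rose 1.63-fold (adjusted p = 0.0177). Slc41a3, a magnesium transporter family member, fell 2.33-fold (adjusted p = 0.00645). Phyhd1, a dioxygenase family member, fell 3.48-fold from a bright 4.95, 5.39 and 4.64 to 3.22, 3.22 and 3.14 (adjusted p = 0.00424).

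Ion channel genes changed in both directions. Kcnv2, a modifier subunit of voltage-gated potassium channels (chromosome 19, 27036941 to 27037000), went from −2.79, −1.68 and −2.24 to −4.64, −4.47 and −4.72, 5.19-fold lower (limma adjusted p = 0.00133). It was the 1 called gene of 28 potassium channel genes, of which 21 were below 0 (median −0.11). Kcnj12 and Kcnj3, subunits of the inward rectifier and of the acetylcholine-gated channel, differed by −0.56 and −0.69 and did not pass (adjusted p = 0.139 and 0.151). Cngb3, a subunit of the cyclic nucleotide-gated channel known from cone photoreceptors, fell 5.56-fold from −1.59, −1.37 and −1.72 to −3.83, −4.27 and −4.00 (adjusted p = 0.00142). Of the 19 tested genes for sodium and pacemaker channels and connexins 1 rose and 1, Cngb3, fell (median −0.10). Cacnb1, a β subunit of voltage-gated calcium channels, rose 1.6-fold (adjusted p = 0.0393).

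In second-messenger signalling Nos1, neuronal nitric oxide synthase (chromosome 5, 117187735 to 117187794), went from −3.57, −4.02 and −3.68 to −2.08, −1.47 and −1.58, 4.14-fold higher (SE of the log2 value 0.234, limma adjusted p = 0.00268). It was the 1 called gene of 31 for nitric oxide and cyclic nucleotides (median −0.16). Adcy6, a cardiac adenylyl cyclase, and Pde7a, a cyclic AMP phosphodiesterase, differed by −0.41 and −0.58, and Pde3a, another phosphodiesterase, by 0.42; none of the 3 passed (adjusted p = 0.0828, 0.105 and 0.156). G protein genes outside the lists, again picked out after their values were seen, rose and fell. Gnb3, a G protein β subunit, rose 2.55-fold from −2.02, −1.58 and −1.49 to −0.22, −0.39 and −0.44 (adjusted p = 0.00207). Rgs7bp and Rgs6, which bind or are regulators of G protein signalling, rose 2.43-fold and 1.83-fold (adjusted p = 0.00645 and 0.00476), and Gcgr, the glucagon receptor, rose 1.77-fold (adjusted p = 0.0431). Plcb2, a phospholipase C driven by G proteins, fell 2.69-fold (adjusted p = 0.00226). For catecholamines, Pnmt, which converts noradrenaline to adrenaline and is a known glucocorticoid-dependent gene of the adrenal medulla, fell 2.79-fold from −2.34, −2.49 and −2.46 to −4.13, −3.89 and −3.72 (adjusted p = 0.00156). Maob, a monoamine oxidase, fell 2.04-fold (adjusted p = 0.0143), and Adra2a, the α2A adrenergic receptor, fell 4.15-fold, with 1 of 3 knockout hearts well above background (adjusted p = 0.038).

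Transcription and retinoid genes completed the largest changes. Lrat, which esterifies retinol for storage, fell 8.79-fold from −1.67, −2.02 and −0.93 to −4.29, −5.47 and −4.27 (limma adjusted p = 0.00618), and was the 1 called gene of 21 for retinoids (median −0.03). Gata6, a GATA transcription factor of heart muscle, was tight within each group, at 3.25, 3.41 and 3.47 against 2.61, 2.54 and 2.51 (1.77-fold lower, adjusted p = 0.00322). Csdc2, an RNA-binding cold shock domain protein, fell 4.74-fold from 1.29, 1.61 and 1.39 to −0.89, −0.65 and −0.92 (adjusted p = 0.00104). Mkx, a homeobox factor of tendon, rose 3.20-fold from −5.07, −4.76 and −4.81 to −3.14, −3.19 and −3.28 (adjusted p = 0.00645). Rab3b, a small GTPase of vesicle release, fell 4.55-fold (adjusted p = 0.00107) and Noct, a rhythmic phosphatase of dinucleotide cofactors, fell 2.01-fold (adjusted p = 0.00476). Chd6, a chromatin remodeller, fell 3.23-fold on its brightest probe (adjusted p = 0.00277), while a dim probe of Chd6 differed by 0.11 in the other direction. None of these genes had overlapping groups.

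The rest of the largest changes were in genes that share no list. Morn4, a MORN repeat protein, rose 3.13-fold from 0.23, 0.11 and −0.18 to 1.6, 1.76 and 1.72 (limma adjusted p = 0.00133). Atp6v0e2, a subunit of the proton pump of endosomes and lysosomes, rose 2.51-fold (adjusted p = 0.00157), and Lman1l, a lectin related to a cargo receptor of the early secretory pathway, rose 3.38-fold (adjusted p = 0.00532). Aqp8, a water channel, rose 3.94-fold (adjusted p = 0.0234), and Ephx4, an epoxide hydrolase family member well above background in 1 of 3 dflox and 3 of 3 knockout hearts, rose 4.78-fold (adjusted p = 0.0333). Among the falls 2210407C18Rik, a gene named by its cDNA clone, went from 2.17, 2.01 and 2.61 to −0.35, −1.0 and −0.05, 6.63-fold lower (adjusted p = 0.00157). Trnp1, a nuclear protein of neural progenitors, fell 3.40-fold (adjusted p = 0.00532). Vwc2, a secreted BMP antagonist, fell 3.96-fold with knockout replicate 2 the lowest heart (adjusted p = 0.0336), and Tent5b, a poly(A) polymerase family member, fell 4.73-fold (adjusted p = 0.0314). Rasl10a, a Ras-like GTPase, fell 3.00-fold (adjusted p = 0.0186), and Ankrd63, an ankyrin repeat gene not well above background in any knockout heart, fell at least 2.23-fold (adjusted p = 0.0161). Each of these genes separated the genotypes in every heart.

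Known targets of the glucocorticoid receptor held 1 call among 39 tested, a share not below the 0.98% of all genes. The call was that of Pik3r1, a regulatory subunit of PI3 kinase, at 0.02, 0.48 and 0.58 in dflox and −0.55, −0.64 and −0.79 in knockout hearts (2.03-fold lower, limma adjusted p = 0.025). The list's median was −0.20, with 27 of 39 below 0. Fkbp5, a chaperone that restrains the receptor, overlapped between genotypes at −2.65, −2.26 and −1.89 against −2.89, −3.13 and −2.61 (difference −0.61, adjusted p = 0.509). Per1, a clock gene that the receptor induces, stood at 1.55, 1.49 and 1.96 in dflox and 1.18, 0.79 and 0.54 in knockout hearts. Klf15, a metabolic transcription factor induced by glucocorticoids, stood at 2.86, 2.70 and 2.86 against 2.27, 2.09 and 1.96. Both separated the genotypes in every heart, at −0.83 and −0.70, but did not pass (adjusted p = 0.748 and 0.467). Ptgds, prostaglandin D2 synthase, differed by −1.04 (adjusted p = 0.313), Mt1, a metallothionein, by −0.98 (0.0947) and Cebpb, a bZIP factor, by −0.73 (0.0655). Tsc22d3, which encodes GILZ, differed by −0.14 (adjusted p = 0.998), and the groups of Sgk1, the serum- and glucocorticoid-regulated kinase, overlapped (difference 0.08). Of 19 mineralocorticoid receptor targets 0 passed, 13 were below 0 and the median was −0.28. With the airway score as a covariate the medians of the glucocorticoid and mineralocorticoid lists were −0.004 and 0.05. Per1 and Tsc22d3 changed sign in that fit, to 0.05 and 0.01. With place as a term the medians were −0.27 and −0.23, and Per1 and Tsc22d3 stayed negative, at −0.79 and −0.26.

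The promoters of the called genes were read for the receptors' shared element because both factors bind it. RefSeq promoters (GRCm38.p6, 250 bases before to 50 after a start site) were at hand for 12009 of the genes tested. The element searched was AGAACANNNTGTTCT with at most 2 mismatches in its 12 fixed letters, and its hexamer was TGTTCT on either strand, which the element contains. The element was found in promoters of 1 of 61 genes called higher (1.64%), 2 of 65 called lower (3.08%) and 1.46% of all genes tested, and the hexamer in 19.7%, 16.9% and 15.7%. These shares describe the windows and were not tested. The 3 called genes whose windows hold the element are shown, with the 250 bases before the start and the element's fixed positions in capitals. Lrat, the largest fall with the hexamer there, is shown with that hexamer in capitals. Meig1, a gene of sperm formation that rose 3.65-fold (limma adjusted p = 0.0053), has the element 77 bases before its start at chr2:3418598-3418847, minus strand. Art3, an ADP-ribosyltransferase family member, fell 1.96-fold from 4.95, 4.90 and 4.85 to 3.99, 3.89 and 3.90 (adjusted p = 0.00183), and its element lies 190 bases before the start at chr5:92387884-92388133, plus strand. Gfra4, a co-receptor of the GDNF family, fell 1.37-fold (adjusted p = 0.0435), with the element 126 bases before its start at chr2:131043089-131043338, minus strand. The hexamer of Lrat lies 73 bases before the start at chr3:82903975-82904224, minus strand.
Meig1: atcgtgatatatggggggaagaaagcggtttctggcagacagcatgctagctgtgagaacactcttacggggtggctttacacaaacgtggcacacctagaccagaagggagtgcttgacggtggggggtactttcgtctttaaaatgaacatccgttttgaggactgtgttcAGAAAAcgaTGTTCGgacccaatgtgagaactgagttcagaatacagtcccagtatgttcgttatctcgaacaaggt
Art3: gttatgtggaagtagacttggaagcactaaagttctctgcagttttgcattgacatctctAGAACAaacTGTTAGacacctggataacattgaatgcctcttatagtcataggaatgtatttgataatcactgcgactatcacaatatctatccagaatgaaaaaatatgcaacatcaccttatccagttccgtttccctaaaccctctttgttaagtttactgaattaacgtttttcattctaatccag
Gfra4: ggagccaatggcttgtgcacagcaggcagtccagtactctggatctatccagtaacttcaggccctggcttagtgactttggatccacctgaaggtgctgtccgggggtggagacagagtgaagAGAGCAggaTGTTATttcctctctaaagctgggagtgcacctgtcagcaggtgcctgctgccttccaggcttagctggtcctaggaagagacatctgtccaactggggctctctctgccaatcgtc
Lrat: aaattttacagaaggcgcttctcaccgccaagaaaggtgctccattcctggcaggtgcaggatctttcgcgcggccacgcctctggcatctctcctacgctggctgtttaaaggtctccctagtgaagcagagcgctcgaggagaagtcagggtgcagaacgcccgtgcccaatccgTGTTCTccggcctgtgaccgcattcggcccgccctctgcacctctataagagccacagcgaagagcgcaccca
In all 3 elements 2 of the fixed letters differ from the palindrome.

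Seen by list, the 24 pathway lists held 27 of the 179 calls, 15 higher and 12 lower, among 635 tested members (4.25%, against 0.98% of all genes). The lists were drawn up with earlier results of these data known, so this share is a description. In 10 lists no gene was called, among them the respiratory chain, extracellular matrix (39 genes, 36 below 0, median −0.15), circadian clock (20 genes, median −0.17), interferon-induced (29 genes, median 0.05), antioxidant (31 genes, median 0.03) and imprinted growth genes (18 genes, median −0.10). Members with the smallest p there stayed above the threshold: Gstk1, a glutathione transferase of mitochondria and peroxisomes, at −1.04 (limma adjusted p = 0.0526), and Dlk1, an imprinted growth regulator, at −1.13 (0.289).

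**Figure D3:**
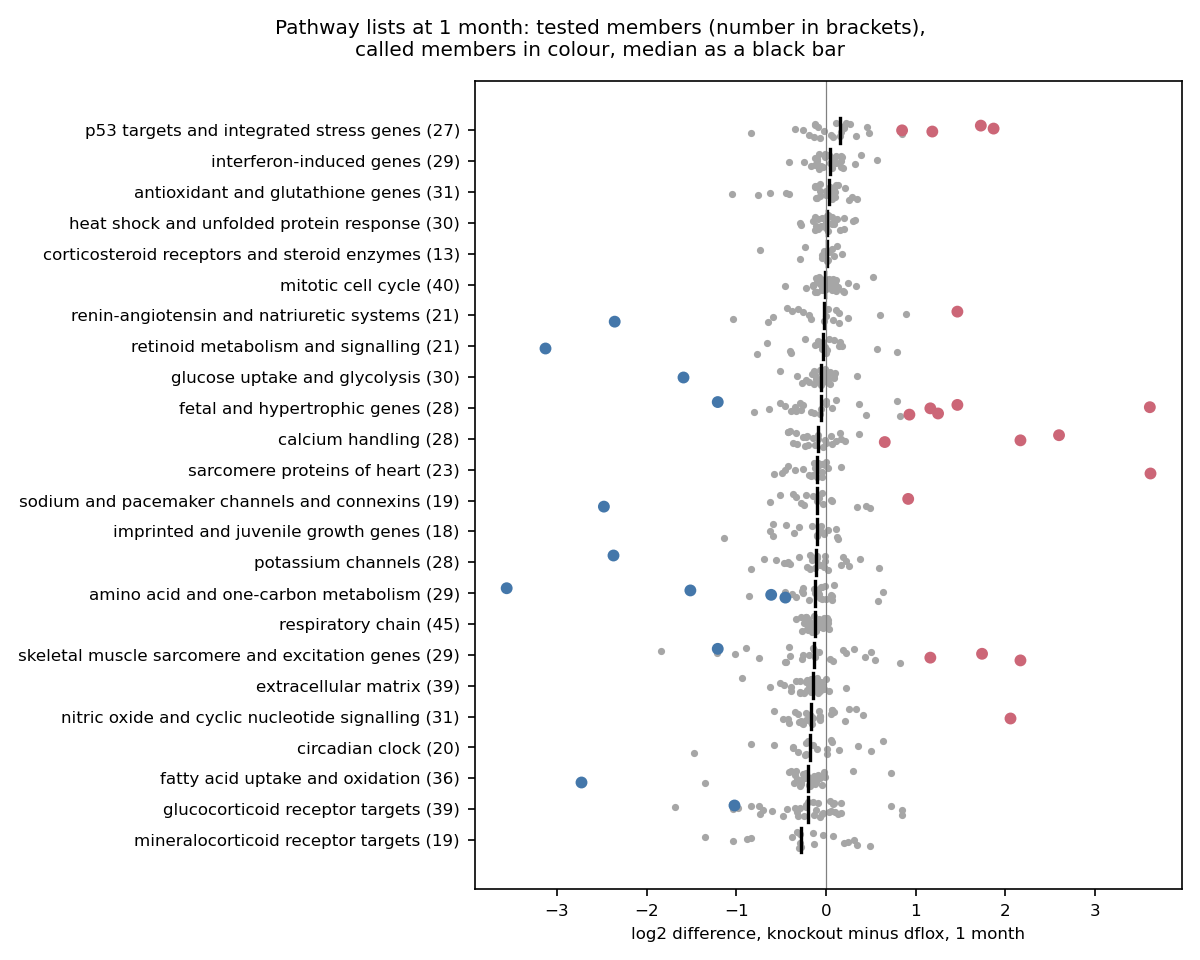
Log2 difference between knockout and dflox hearts at 1 month (x axis) for every tested member of 24 pathway lists (rows, number tested in brackets); called members are red where higher and blue where lower, the others grey, and black bars are medians. The medians lie between −0.28 and 0.16, while single called genes lie as far as −3.56 and 3.61.

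Markers of other cell types were set beside these results. In the 17 cell type lists 0 genes passed the test at 1 month, beside 0.98% of all genes. The 19 tested airway epithelium markers were all lower in knockout hearts (median −4.61), led in size by Bpifa1 and in p by Krt15, an airway basal cell keratin (−5.27, limma adjusted p = 0.228). Their signals summed to 117.7 to 236.1 in dflox and 33.8 to 37.8 in knockout hearts, without overlap. Scgb1a1 stood at 3.74, 4.92 and 4.41 in dflox and 0.54, −0.46 and −1.49 in knockout hearts (difference −4.82, SE 1.87, adjusted p = 0.41). Cyp2f2 stood at 3.41, 4.62 and 4.49 against −0.03, −1.93 and −2.57 (difference −5.68, SE 2.16, limma adjusted p = 0.395). These SEs also take in the spread at 2 months, where Scgb1a1 ran from −1.34 to 5.63. Within the 1-month groups its SD was 0.59 in dflox and 1.01 in knockout hearts. Scgb1a1 and Cyp2f2 were each called in 2 of 27 alternative settings and Krt15 in 2 of 26, so the lack of a call depends on the fit. All 12 tested cartilage markers were lower too (median −1.17; summed signal 12.2 to 16.0 against 9.70 to 10.8), with Snorc, a cartilage proteoglycan, at −4.55 (adjusted p = 0.115). Snorc was called in 3 of 26 alternative settings. In all 82 genes were lower by a log2 value of 2 or more without being called, 14 of them on the airway list, against 6 higher by as much. At 2 months 78 of the 82 were above 0 (median 0.92).

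Other cell types were read the same way. All 20 fibroblast markers were lower in knockout hearts (median −0.16), with Fbln1, an extracellular matrix glycoprotein, at −0.62 (limma adjusted p = 0.125) and summed signals of 850.3 to 858.2 in dflox and 730 to 769.1 in knockout hearts. Of 24 macrophage markers 22 were higher (median 0.23), among them Aif1 at 0.38 (limma adjusted p = 0.246), with sums of 70.7 to 157 against 164.9 to 184.5. The sum of 70.7 is that of dflox replicate 2, and spots left out as outliers add nothing to a sum. Over the markers with a value, mean log2 levels were 1.00, 1.13 and 1.39 in dflox and 1.40, 1.47 and 1.48 in knockout hearts. Endothelial markers (21 genes, median −0.09) had sums that overlapped, at 423.4 to 444.4 and 363.2 to 437. Among 15 smooth muscle and pericyte markers, Myh11, smooth muscle myosin, differed by −0.85 (adjusted p = 0.128), and Acta2, smooth muscle actin, by 0.44 (adjusted p = 0.419). Atrial and conduction markers were lower in 16 of 18 (median −0.40), epicardial and valve markers in 18 of 19 (median −0.35), fat cell markers in 12 of 12 (median −0.74) and nerve markers in 12 of 13 (median −0.26), while 7 of 10 neutrophil markers were higher (median 0.63). Knockout replicate 1 was the lowest heart in the summed atrial signal, at 488.2 against 870.1 and 812.3 in replicates 2 and 3, and in that of fat, at 44.5 against 169.4 and 139.6. In the mean log2 level of neutrophil markers it was the highest heart, at −1.90 against −4.73 and −3.79 in replicates 2 and 3. Dflox hearts stood at −4.22, −3.44 and −3.18, so a higher mean level in knockout hearts rests on this 1 heart. Slides 1 and 2 leave this heart out. Within them Ngp was higher in knockout hearts by 1.2 and 0.6, and Csf3r by 1.57 and 0.35. Ltf differed by −5.06 and −5.69. Of the 12 lung alveolus markers tested, 6 were higher and 6 lower. Sftpd, Sftpa1 and Aqp5, a pair of surfactant proteins and a water channel, were at −4.07, −4.07 and −3.58 without overlap of the groups, as among the airway markers, and none passed (limma adjusted p = 0.438, 0.642 and 0.449). Sftpc, another surfactant protein, was at 0.96 (adjusted p = 1.00), and Hopx, which heart muscle also expresses, at 0.71 (adjusted p = 0.0501). The part of these cell types in the calls was not tested.

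At 2 months place ran with genotype only in part, with 2 of 3 knockout arrays inner and 2 of 3 dflox arrays outer, and high and low airway scores occurred in both genotypes. On slide 1 at 2 months the knockout heart lay in an outer place with a high airway score (4.79) and the dflox heart in an inner place with a lower one (0.89), the reverse of 1 month. Between these 2 hearts 175 of 178 called genes with values kept their 1-month direction, with a median difference of 1.02 in that direction, against 1.03 at 1 month. On slide 3, where as at 1 month the knockout heart was inner with the lower airway score (−2.11) and the dflox hearts outer (−1.83 and 5.42), 176 of 178 kept it (median 1.09). Within a genotype at 2 months, inner against outer arrays gave 92 of 177 genes in the 1-month direction in dflox (median 0.02) and 97 of 179 in knockout hearts (median 0.02). The dflox inner array lay on slide 1 and the outer ones on slide 3. The knockout inner arrays lay on slides 2 and 3 and the outer one on slide 1. Place and slide thus cannot be told apart within a genotype at 2 months. At 1 month the median was 1.03 within slide 1 and 1.05 within slide 2; the direction there is fixed, since no called gene's groups overlap. With the airway score as a covariate 40 genes were called and with place as a term 9, all of them among the 179. All 179 kept their direction in both fits, with a median size of 0.97 and 0.99 times the original and a median SE 1.32 and 1.5 times as large. At 1 month place does not vary within a genotype, so the place term was estimated from the 2-month arrays alone. The fit therefore gives no separate value for place at 1 month. With place these 9 included Myh7 (adjusted p = 0.0041), Casq1, Csdc2, Sds, Rab3b, Art3 and Chd6, and with both terms Myh7 alone was called. The 40 called with the airway score included Agt, Nos1, Gdf15, Prodh, Pnmt, Gata6, Kcnv2, Cngb3, Bdh1 and Fgf6.

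**Figure D4:**
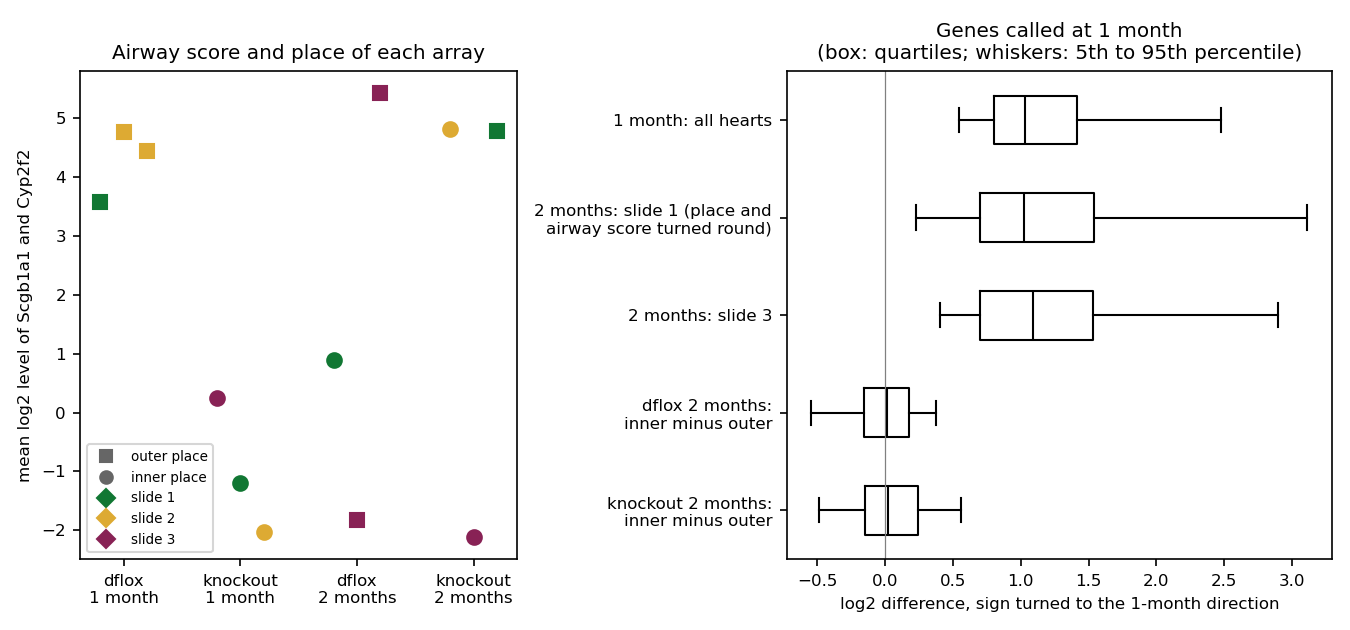
Left, mean log2 level of Scgb1a1 and Cyp2f2 (y axis) in each of the 12 hearts by group, squares for outer and circles for inner places, colours for slides. Right, log2 differences of the genes called at 1 month with their sign turned to the 1-month direction (x axis): the medians are 1.03 at 1 month, 1.02 on slide 1 and 1.09 on slide 3 at 2 months, and 0.02 between inner and outer arrays of 1 genotype. Those inner and outer arrays, all of 2 months, also lay on different slides.

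Each 1-month heart carried weight in the number of calls. Without dflox replicate 1, 2 or 3 limma called 85, 93 or 101 genes, and without knockout replicate 1, 2 or 3 it called 89, 93 or 83, in place of 179. In all 69 stayed called without any 1 of the 12 hearts, among them Myh7, Casq1, Nos1, Gdf15, Gadd45a, Eda2r, Mybpc2, Fgf6, Agt, Sds, Lrat, Prodh, Pfkfb1, Bdh1, Kcnv2, Cngb3, Pnmt, Gata6, Csdc2, Tnni1 and Acsm5. Calls that ended without any 1 of the 6 hearts at 1 month were those of Nppb, Ankrd1, Rprm, Adra2a, Tent5b, Ppp1r3c, Stbd1, Got1, Bckdhb and Gfra4. The call of Mylpf ended without dflox replicate 1 or 3. That of Alas1 ended without dflox replicate 1 or 2 or knockout replicate 1 or 3, and that of Maob without any dflox replicate or knockout replicate 3. Those of Vwc2 ended without any dflox replicate and of Ankrd63 without dflox replicate 1 or 2 or knockout replicate 3. The calls of Aqp8, Ephx4, Rasl10a, Cck, Pik3r1, Camk2b, Ccnd2, Ckb, Cacnb1, Nmrk2, Gcgr and Tmod4 ended without 1 or another of at least 4 of the 6 hearts at 1 month.

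The same genotypes at 2 months gave 422 calls, 2.31% of all genes, and share no heart with the comparison at 1 month, although the estimate of spread is common to both. Of the 179 genes 177 had the same sign at 2 months and 151 were called there too; 168 had groups that did not overlap in the same direction, beside 17.7% of all genes without overlap at 2 months. The median size was 1.03 at 1 month and 1.04 at 2 months, with 95 genes larger and 84 smaller at the later age. Gdf15 differed by 1.87 at 1 month and 3.05 at 2 months, Casq1 by 2.17 and 3.45, and Kcnv2 by −2.38 and −3.69, while Myh7 differed by 3.61 and 2.76 and Prodh by −1.51 and −1.06. The 28 genes that did not pass at 2 months included Nppb (0.70, limma adjusted p = 0.273), Ankrd1 (0.65, 0.113), Mylpf (0.97, 0.107), Gadd45a (0.39, 0.104), Bdh1 (−0.65, 0.115) and Ppp1r3c (0.33, 0.359). Snph, a neuronal syntaxin-binding protein, and Adra2a had the opposite sign at 2 months, at 0.14 and 0.35. The difference between ages, tested as an interaction in limma, was called for 0 genes (0% of those tested; 644 at an unadjusted p under 0.05; smallest adjusted p 0.934). Without slide 3, which leaves 1 dflox heart at 2 months that is assumed to vary like the others, 136 genes were called for it.

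**Figure D5:**
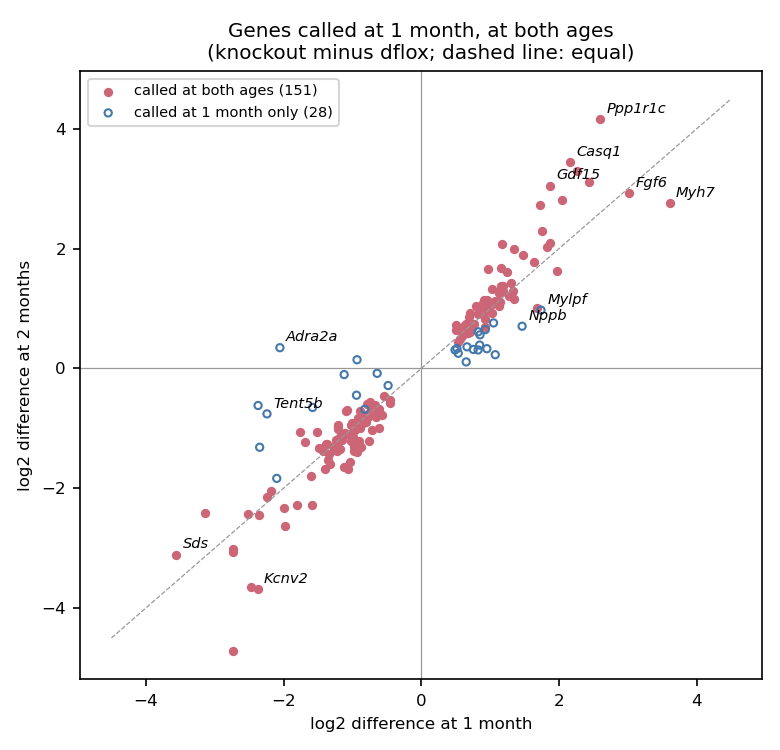
Log2 difference between knockout and dflox hearts at 1 month (x axis) and at 2 months (y axis) for the 179 genes called at 1 month; filled points were called at both ages (151) and open points at 1 month and not at 2 months (28). For all but Snph and Adra2a both differences have the same sign, and the dashed line marks equal differences.

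Probes of the same gene mostly went together. For 63 called genes a further probe passed the filter, 82 probes in all, and 74 of these had the sign of the brightest probe, with a median ratio of 0.80 to its difference. The other 8, dimmer ones, had the opposite sign and belonged to Ano10, Cck, Chd6, Eprn, Heatr5b, Hpn, Mtr and Trim67. For Cck, the cholecystokinin gene, the brightest probe rose 2.38-fold (limma adjusted p = 0.0249) while the dim probe differed by −0.47, so its direction depends on the probe.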

How the data were processed

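Total RNA (500 ng per heart, purified with DNase treatment per the labels' protocols) was labelled with Cy3 and hybridised to 12 single-colour Agilent arrays on 3 slides. Per the submitters' processing notes the scans were read with Agilent Feature Extraction 9.5 (version 9.5.3.1 by the headers of the scans). For each spot the deposited intensity is the software's processed signal, with background and spatial trend already subtracted by the authors' software; the authors' deposited series values are the same. Probe coordinates are mm7, per the file headers; the exon or UTR a probe lies in was not annotated here.

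Control spots and spots flagged as outliers were left out. Intensities were put on a log2 scale and each array's 75th percentile was subtracted. Spots of a probe were averaged, a probe was kept if at least 1 group had it well above background in all 3 hearts (26979 of 41174), and the brightest probe stood for a gene (18258 genes; 476 lack a value on an array). Of the probes 22951 were named by RefSeq accession, 124 by another accession, 6582 by current symbol and 3077 by older symbol, and 8440 kept the name in the file. limma 3.58.1 (R 4.3.3) fitted 4 group means over 12 arrays (prior df 2.22, residual df 8), and genes at a Benjamini-Hochberg adjusted p under 0.05 were called. The fit was tested on simulated data. Group sizes of 3 and the number of arrays limit the precision. The series' design text gives 3 mice in each group, so each array stands for 1 animal. Replicate numbers did not pair the samples.

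The comparison and the gene lists were chosen with earlier results of these data known. Genes were named by rule. The rule took the 20 largest rises and the 20 largest falls among called genes with a current symbol. These also had to have groups that did not overlap and a brighter group well above background on all its arrays. It added a set of receptor, target and marker genes, and from each list the called members and those with the smallest p. Genes with the smallest p of the difference between ages were added too. Not every gene that meets the rule is described, and some are not reported here. Alas1, Art3, Cacnb1, Ccnd2, Ckb, Gata6, Gcgr, Gfra4, Maob, Nmrk2, Noct, Plcb2, Pnmt, Ppp1r3c, Rgs6, Slc41a3, Stbd1 and Tmod4, and the uncalled Actc1, Bpifa1, Cth, Sftpa1, Sftpc and Tnnt2, lie outside the rule and were picked out after their values were seen; genes with a probe of opposite sign are named in full. The airway score is the mean log2 level of Scgb1a1 and Cyp2f2.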

Additional observations from a re-analysis of the deposited data

How the results depend on the processing

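All 179 genes called at 1 month kept their direction where measured under the alternatives tried, except 1 gene each under normexp background correction and with the mean of passing probes; without 1 heart this is fixed, since the groups do not overlap. The number of calls was 108 with normexp, 111 with the array median as scale, 91 with no filter on dim probes, 40 with the airway score and 9 with place. With place and airway score together, an alternative chosen after seeing the data, it was 1. Leaving out 1 heart gave 83 to 232 calls at 1 month. At 2 months calls numbered 248 with normexp, 264 with the array median, 243 with no filter, 111 without slide 3 and 240 to 389 without 1 heart. The interaction had 136 calls without slide 3 and 1 with place. With the replicate block 136 genes were called at 1 month, 326 at 2 months and 0 for the interaction; same-numbered hearts had deviations correlated at −0.15, −0.02 and 0.03, so the numbers pair nothing. The share of calls higher in knockout hearts was 44.7%, and 22% without slide 3, 22.2% with place and 31.9% with the 6 arrays alone.

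Nr3c2 turned negative with normexp (−0.063), slide as a fixed term (−0.27), the airway score (−0.16) and without slide 3 (−0.20), and ran from −0.20 to 0.23 without 1 heart. Sgk1 turned negative with place (−0.27) and without slide 3 (−0.082), and ran from −0.10 to 0.18 without 1 heart. Catsperb was −0.11 with normexp. With the airway score Per1 was 0.050, Tsc22d3 0.0078 and Scgb1a1, itself part of the score, 0.055. The cause of these changes was not tested. Signals near background limit what can be said of dim genes such as Nr3c2.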
